A study of Drosophila melanogaster with 12 samples.

Results

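The genes described here are nuclear receptors of Drosophila melanogaster that carry the signal of the steroid hormone ecdysone or that regulate energy metabolism. They are EcR, usp, Eip75B, Eip78C, Hr3, Hr4, Hr39, ftz-f1, ERR and Hnf4, and they were chosen by symbol: every probe set whose platform annotation names 1 of these 10 genes alone was used. The annotation names 15 such probe sets for 9 of the 10 receptors, out of 11982 genes named by 13647 of 18769 probe sets. No probe set is named for Eip75B here, and that receptor was not analysed. Total RNA of adult flies had been hybridised to 12 oligonucleotide arrays, 3 in each of 4 groups: Canton S wild type given sucrose, Canton S given sucrose with 0.3% phenobarbital, DHR96 mutants given sucrose, and DHR96 mutants given sucrose with 0.3% phenobarbital. All flies had been starved overnight before feeding. The mutant arrays carry the short name E25, read as the mutant because the other name, CS, stands for Canton S. Allele, genetic background, sex, age and body part are not given by the labels, so the mutant stands for 1 line.

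Nuclear receptors are transcription factors, many of which are switched by a small fat-soluble ligand. EcR binds the active form of ecdysone and acts as a pair with usp, the fly counterpart of the vertebrate retinoid X receptors, and the pair turns on a cascade in which Eip75B, Eip78C, Hr3, Hr4, Hr39 and ftz-f1 take part. The cascade is best known from moulting and metamorphosis and is used again in the adult, above all in the ovary. ERR drives glycolytic and pentose phosphate genes in larvae, and Hnf4 drives the breakdown of stored fat in starved larvae. DHR96, encoded by Hr96, is a further nuclear receptor that binds sterols and takes part in responses to xenobiotics, and phenobarbital is a drug that induces detoxifying enzymes in flies and mammals.

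All values are log2 of the deposited normalized intensity, and a probe set is called dim where its mean log2 value over the 12 arrays is under 4. Nothing in the labels ties the 3 arrays of a group to separate fly cultures, so the p-values rest on a spread that may be technical. Hr96 itself read 8.39 ± 0.17 in wild type and 9.99 ± 0.07 in the mutant on sucrose (SD, n = 3 each), and it was 3.03-fold higher in the arrays labelled mutant (limma, adjusted p = 0.0022). Where the lesion lies relative to the probes is not given by the labels, so this value does not check them, and directions given for the mutant are those of arrays so labelled. Markers of both sexes were measured: 9 of 10 listed accessory gland genes, 10 of 10 testis genes and 5 of 5 fat body and yolk genes were found and none was dim. Of 13 measured ovary and eggshell genes 2 were dim, Vm32E and yellow-g2.

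A probe set counts as called when limma, fitted to all 12 arrays and all 18769 probe sets, gave a Benjamini-Hochberg adjusted p under 0.05 and a change of at least 1.5-fold. By that rule 0 of the 9 receptor genes were called for phenobarbital in wild type, where 4.27% of all probe sets were, and 0 of 9 for phenobarbital in the mutant, where 4.62% were. No receptor gene was called for genotype on sucrose (background 0.213%), for genotype on phenobarbital (0.117%) or for the difference between the responses (0%). At an unadjusted p under 0.05 the numbers of the 9 genes were 1, 2, 2, 3 and 2 in the same order, beside 14%, 17.6%, 9.68%, 11.5% and 3.32% of all probe sets. Without the fold minimum, 1 of 9 genes passed the adjusted p in wild type, where 5.8% of probe sets did, and 2 of 9 in the mutant, where 6.18% did. These were Hnf4 in both genotypes and ERR in the mutant. Genotype on sucrose had 0 of 9 genes past the adjusted p (background 0.314%) and genotype on phenobarbital 0 of 9 (0.133%). For the mean effect of phenobarbital over the genotypes 0 of 9 genes were called (background 5.7%), 2 passed the adjusted p (9.78%) and 2 had an unadjusted p under 0.05 (20.9%). For the mean genotype effect 0 of 9 were called (0.458%), 1 passed the adjusted p (0.842%) and 4 had an unadjusted p under 0.05 (18.7%). With 9 genes, these counts do not set the receptors apart from the whole table.

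Hnf4 had the smallest spread between arrays of the 9 receptor probe sets that are not dim and was higher on phenobarbital in both genotypes. In wild type on sucrose its 3 arrays read 10.61, 10.57 and 10.59, and on phenobarbital 10.86, 10.85 and 10.96. In the mutant they read 10.43, 10.41 and 10.41 on sucrose and 10.86, 10.82 and 10.85 on phenobarbital. The diets do not overlap in either genotype, and the order from low to high is mutant on sucrose, wild type on sucrose, then both groups on phenobarbital, which overlap.

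The rise of Hnf4 was 1.23-fold in wild type (log2 difference 0.30 ± 0.03, SE; 95% interval 1.18-fold to 1.29-fold; limma adjusted p = 0.00023). In the mutant it was 1.34-fold (0.42 ± 0.03; 1.28-fold to 1.40-fold; adjusted p = 2.9e-05). Both intervals end below the 1.5-fold minimum. The spread of Hnf4 between arrays of a group, an SD of 0.03, was smaller than that of nearly all other probe sets: only 0.0774% of the 10341 probe sets that are not dim had a smaller one. On sucrose the mutant was 1.13-fold below wild type, without overlap of the arrays (log2 difference -0.17 ± 0.03, adjusted p = 0.053), and on phenobarbital the difference was -0.05 ± 0.03 (adjusted p = 0.37). The response of the mutant exceeded that of wild type by 0.12 ± 0.04 on the log2 scale, with an unadjusted p of 0.013 and an adjusted p of 0.84, so a difference between the responses was not established.

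Averaged over the diets, Hnf4 was 1.08-fold lower in the mutant, with an adjusted p of 0.047 in limma where 0.842% of probe sets passed. This call was lost in 9 of 12 fits that left out an array (adjusted p from 0.023 to 0.12 over the 12). It was also lost without dim probe sets (adjusted p = 0.22) and with an intensity trend in the prior (adjusted p = 0.25). With the replicate number as a block the adjusted p was 0.068.

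ERR, the receptor tied to carbohydrate metabolism, was higher on phenobarbital in the mutant. Its mutant arrays read 6.07, 5.91 and 5.86 on sucrose and 6.60, 6.44 and 6.39 on phenobarbital. In wild type they read 6.07, 6.01 and 6.08 on sucrose and 6.07, 6.16 and 6.09 on phenobarbital. The mutant arrays on phenobarbital lie above all 9 others, and among the other 3 groups those that differ in 1 factor overlap.

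In the mutant the rise of ERR was 1.44-fold (log2 difference 0.53 ± 0.07, SE; 95% interval 1.30-fold to 1.60-fold; limma adjusted p = 0.0012), just under the fold minimum. In wild type the change was 0.06 ± 0.07, with an interval from 0.936-fold to 1.15-fold (adjusted p = 0.62). The test of the difference between the responses gave 0.47 ± 0.09 on the log2 scale, an unadjusted p of 0.00072 and an adjusted p of 0.71. On phenobarbital the mutant was 1.29-fold above wild type (0.37 ± 0.07, adjusted p = 0.12) and on sucrose the difference was -0.11 ± 0.07 (adjusted p = 0.74). ERR thus rose in the mutant, and a difference between the responses was not established over 18769 probe sets.

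**Figure D1:**
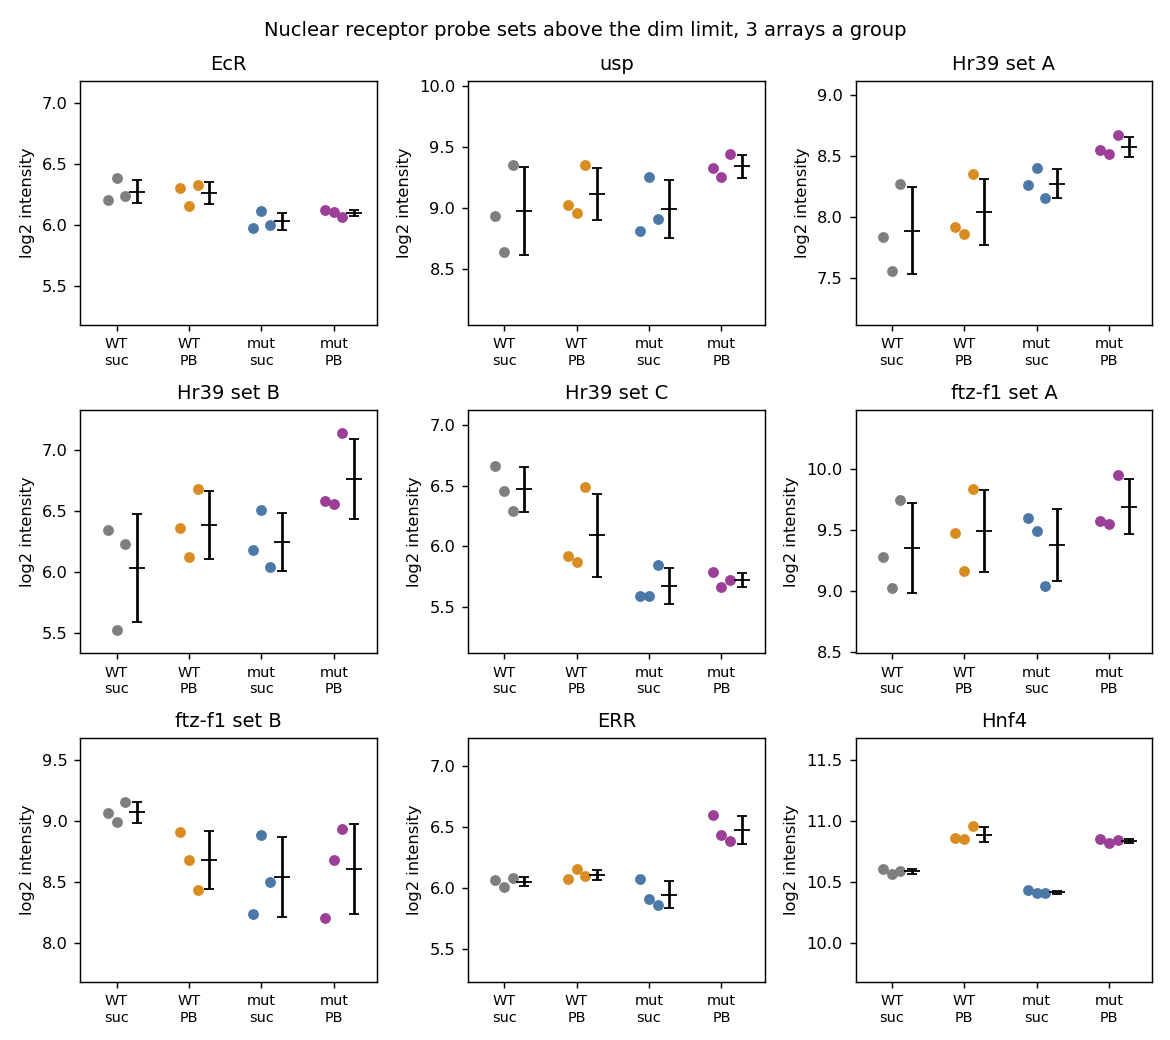
Log2 intensity (vertical axes, each spanning 2 log2 units) of the 9 receptor probe sets that are not dim, in wild type (WT) and DHR96 mutant (mut) flies on sucrose (suc) or phenobarbital (PB). Dots are arrays and the black bars give mean ± SD (n = 3). Hnf4 lies higher on phenobarbital in both genotypes, and ERR lies highest in the mutant on phenobarbital, from 6.39 to 6.60.

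Markers of several tissues also differed between the diets. In wild type the summed intensity of 9 accessory gland genes was 71925 to 95544 on sucrose and 29768 to 51190 on phenobarbital, and in the mutant it was 69115 to 106773 and 26524 to 46517. The sum of 3 measured digestive tract genes of 5 listed was 4714 to 5550 on sucrose and 481 to 664 on phenobarbital in wild type, and 2002 to 2544 and 217 to 281 in the mutant. In each genotype 2 of the 3 digestive genes were called lower, as were 3 accessory gland genes in wild type and 6 in mutants. Of 13 ovary and eggshell genes, dim ones included, 2 were called lower in each genotype, with medians of -2.49 and -1.45. Their sums overlapped between the diets in each genotype. Of 5 fat body and yolk genes 1 was called lower in each genotype and 1 higher in the mutant. Of 10 testis genes 0 were called in either genotype, with medians of -0.16 and -0.72. Their sums in wild type were 30724 to 51788 on sucrose and 25385 to 41010 on phenobarbital, which overlap. In the mutant they were 32360 to 52433 and 18595 to 29502, without overlap. The part of all these markers in the changes of Hnf4 and ERR was not tested. In RNA of whole tissues or animals, fewer cells of a type and less RNA per cell cannot be told apart.

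EcR, the ecdysone receptor itself, showed no call and read slightly lower in the arrays labelled mutant. Wild-type arrays read 6.20, 6.38 and 6.23 on sucrose and 6.30, 6.16 and 6.33 on phenobarbital. Mutant arrays read 5.98, 6.11 and 5.997 on sucrose and 6.12, 6.10 and 6.07 on phenobarbital. The genotypes do not overlap on either diet, while the diets overlap within each genotype.

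The genotype difference of EcR was -0.24 ± 0.06 on sucrose (log2, SE; limma adjusted p = 0.17) and -0.16 ± 0.06 on phenobarbital (adjusted p = 0.37). Averaged over the diets it was -0.20 ± 0.04, 1.15-fold lower in the mutant, at an adjusted p of 0.071, and thus missed the threshold. Phenobarbital gave -0.01 ± 0.06 in wild type and 0.07 ± 0.06 in the mutant, with 95% intervals from 0.902-fold to 1.09-fold and from 0.954-fold to 1.15-fold. A change of EcR by 1.5-fold on phenobarbital lies outside both intervals.

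Tissue markers differed between the genotypes as well. The median log2 difference of 13 ovary and eggshell genes was 3.68 on sucrose and 3.85 on phenobarbital, higher in the mutant. This median includes 2 dim genes, and 0 of the 13 were called. Their summed intensity on sucrose was 13168 to 32482 in wild type against 27254 to 54120 in the mutant, which overlap. On phenobarbital it was 4734 to 14180 against 18993 to 38644, without overlap. For 4 measured flight muscle genes of 5 listed the median was -1.40 and -1.18. Their summed intensities were 20021 to 43628 against 6487 to 16425 on sucrose, and 20137 to 30572 against 7970 to 11889 on phenobarbital. For 5 fat body and yolk genes the median was 0.66 and 0.55, with 1 called higher on phenobarbital. For 3 digestive tract genes it was -0.51 and -0.24, with 1 called lower on phenobarbital. The sums of these 3 genes, given above with the diets, did not overlap between the genotypes on either diet. The part of these tissue markers in the genotype differences of EcR, Hr39, ftz-f1 and Hnf4 was not tested.

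The partner receptor usp varied more between arrays. It read 8.93, 8.64 and 9.36 in wild type on sucrose and 9.03, 8.96 and 9.36 on phenobarbital. In the mutant it read 8.81, 9.26 and 8.90 on sucrose and 9.33, 9.26 and 9.44 on phenobarbital. The 2 mutant groups touch without overlapping, and every other pair of groups that differ in 1 factor overlaps.

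Usp differed between diets by 0.14 ± 0.19 in wild type and 0.35 ± 0.19 in the mutant (log2, SE; limma adjusted p = 0.66 and 0.40), and between genotypes by 0.01 ± 0.19 on sucrose and 0.23 ± 0.19 on phenobarbital. In the mutant the interval of the diet difference ran from 0.946-fold to 1.72-fold, so 3 arrays a group could not settle whether usp changed by 1.5-fold.

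**Figure D2:**
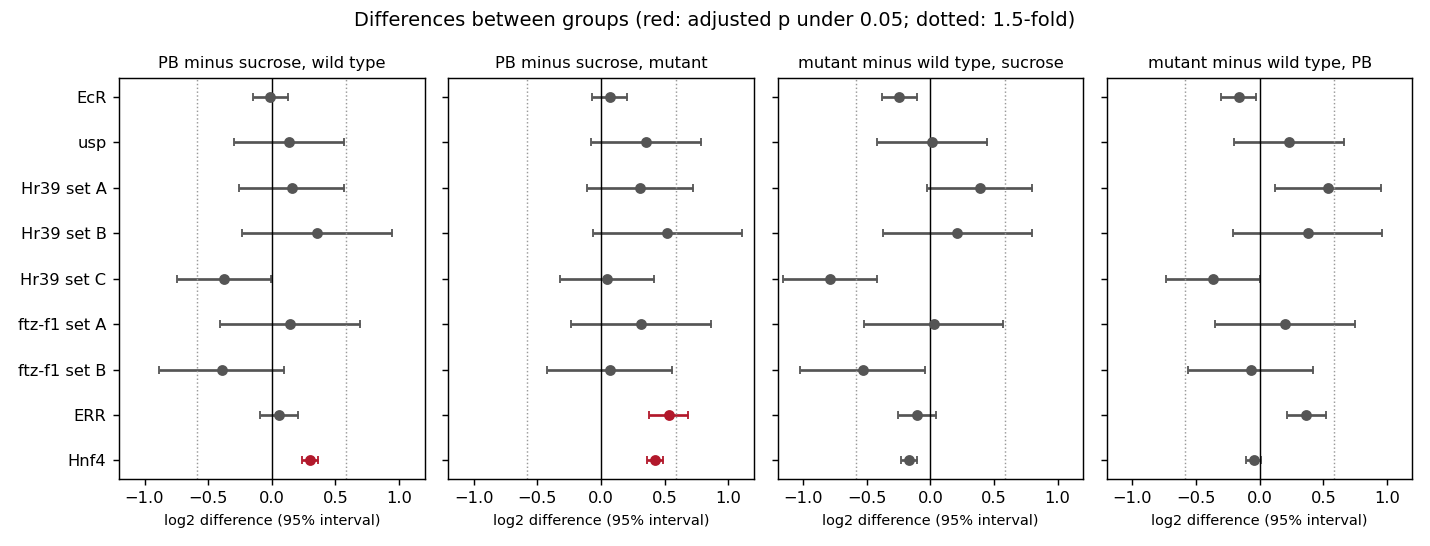
Log2 differences with 95% intervals from limma for the 9 receptor probe sets that are not dim, in the 4 comparisons of 2 groups (PB, phenobarbital). Red marks an adjusted p under 0.05, which Hnf4 reached for phenobarbital in both genotypes and ERR in the mutant, and the dotted lines mark 1.5-fold.

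Hr39 and ftz-f1 are the fly receptors related to vertebrate SF-1 and LRH-1. In the fly ftz-f1 makes tissues competent to respond to ecdysone, and Hr39 is needed to form the secretory glands of the female reproductive tract. Hr39 has 4 probe sets, of which 1 was dim, and ftz-f1 has 2. The brightest set of Hr39 (1631402_s_at, called set A) read 7.83, 7.56 and 8.27 in wild type on sucrose and 7.92, 7.85 and 8.35 on phenobarbital. Mutant arrays read 8.26, 8.40 and 8.16 on sucrose and 8.54, 8.51 and 8.67 on phenobarbital. Set A thus lay highest in the mutant on phenobarbital, above all other arrays.

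Hr39 set C (1630002_s_at) went the other way between the genotypes. It read 6.66, 6.46 and 6.29 in wild type on sucrose and 5.92, 5.87 and 6.48 on phenobarbital, against 5.59, 5.59 and 5.85 in the mutant on sucrose and 5.79, 5.67 and 5.72 on phenobarbital. Every mutant array lay below every wild-type array of the same diet. Set B (1628556_s_at) spread from 5.52 to 7.14 over the 12 arrays, and its genotypes overlap on both diets.

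None of the Hr39 sets passed the adjusted p in limma. Averaged over the diets, set A was 1.38-fold higher in the mutant (log2 difference 0.46 ± 0.13, SE; adjusted p = 0.14), set B 1.23-fold higher (0.29 ± 0.18; adjusted p = 0.37) and set C 1.49-fold lower (-0.58 ± 0.12; adjusted p = 0.062). On sucrose alone set C was 1.73-fold lower in the mutant (-0.79 ± 0.16, unadjusted p = 0.00096, adjusted p = 0.10), and without wild-type phenobarbital replicate 3 it passed (adjusted p = 0.037). Without that array set C also passed for phenobarbital in wild type (-0.57, adjusted p = 0.030, against -0.38 and 0.35 with it). Set C passed the threshold for the mean genotype difference when dim probe sets were left out (adjusted p = 0.038). It also did so without wild-type sucrose replicate 3 (adjusted p = 0.038) or wild-type phenobarbital replicate 3 (adjusted p = 0.034). Without wild-type sucrose replicate 3, set A passed as well (adjusted p = 0.035).

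The unequal behaviour of the Hr39 sets was tested on their ratio within each array, for all pairs of probe sets of a receptor that are not dim. These 4 pairs and 2 effects made 8 tests, a choice made after the values were seen. The log2 ratio of set A over set C in wild type was 1.42 ± 0.49 on sucrose and 1.95 ± 0.07 on phenobarbital. In mutants it was 2.59 ± 0.26 and 2.85 ± 0.09 (SD, n = 3 each). All 6 mutant arrays lay above all 6 wild-type arrays. The ratio was 2.05-fold higher in the mutant (exact permutation test within diets, two-sided p = 0.005, the smallest it can give; adjusted p = 0.02). Set B over set C gave the same p, at 1.83-fold, while set A over set B differed by 1.12-fold (exact p = 0.18, adjusted p = 0.18). Between the diets, set B over set C was 1.52-fold higher on phenobarbital (exact p = 0.015, adjusted p = 0.04), set A over set C 1.31-fold higher without passing the adjusted threshold (exact p = 0.04, adjusted p = 0.08) and set A over set B 1.15-fold lower (exact p = 0.12, adjusted p = 0.14). In these arrays the probe sets of Hr39 did not report 1 common change. As the tests were chosen after the same values were seen, their p-values are a description. The ratios over set C also share that set and are not separate results. The transcripts each set detects were not analysed here.

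**Figure D3:**
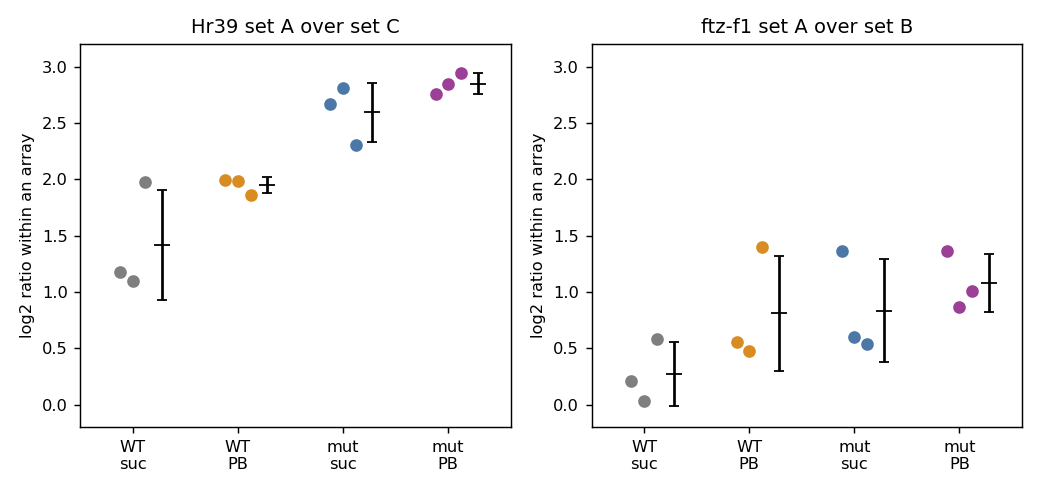
Log2 ratio of 2 probe sets of the same gene within an array (vertical axis) for Hr39 set A over set C and ftz-f1 set A over set B, by group (WT, wild type; mut, DHR96 mutant; suc, sucrose; PB, phenobarbital). Dots are arrays and black bars mean ± SD (n = 3). For Hr39 every mutant array lies above every wild-type array, while for ftz-f1 the genotypes overlap.

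The sets of ftz-f1 spread widely between arrays of a group. Set A (1624520_a_at) read 9.28, 9.02 and 9.75 in wild type on sucrose and 9.47, 9.17 and 9.84 on phenobarbital. It read 9.60, 9.49 and 9.04 in the mutant on sucrose and 9.57, 9.55 and 9.95 on phenobarbital. For set A every pair of groups that differ in 1 factor overlaps. Set B (1640821_at) read 9.07, 8.99 and 9.16 in wild type on sucrose and 8.91, 8.68 and 8.44 on phenobarbital, with no overlap, and 8.24, 8.89 and 8.50 in the mutant on sucrose and 8.21, 8.68 and 8.94 on phenobarbital. Set B was thus highest in wild type on sucrose.

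For ftz-f1 set B the phenobarbital difference in wild type was -0.39 ± 0.22 (log2, SE; limma adjusted p = 0.49), and the genotype difference on sucrose was -0.53 ± 0.22 (adjusted p = 0.46). For set A these were 0.14 ± 0.24 and 0.03 ± 0.24. The ratio of set A over set B was 1.33-fold higher in the mutant (exact permutation p = 0.12, adjusted p = 0.14) and 1.31-fold higher on phenobarbital (p = 0.12, adjusted p = 0.14), neither past the threshold. The 95% interval of set A for phenobarbital in wild type ran from 0.754-fold to 1.61-fold.

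Usp, Hr39 set A and ftz-f1 set A shared part of their spread between arrays. On both wild-type diets and for the phenobarbital-fed mutant, replicate 2 was the lowest and replicate 3 the highest array for all of them. In the mutant on sucrose they had no common order. The other sets of Hr39 and ftz-f1 that are not dim kept the order only in part. Hr39 sets B and C had it on wild-type phenobarbital, and ftz-f1 set B on wild-type sucrose. On wild-type sucrose, however, Hr39 sets B and C were highest in replicate 1. On wild-type phenobarbital ftz-f1 set B was lowest in replicate 3. In the phenobarbital-fed mutant Hr39 set B had the order, and Hr39 set C and ftz-f1 set B did not. Wild-type sucrose replicate 3 lay 0.38 above its group mean for usp, 0.38 for Hr39 set A and 0.40 for ftz-f1 set A, and replicate 2 lay 0.34, 0.33 and 0.33 below it. Hnf4 on the same arrays stayed within 0.02 of its group mean.

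Ovary and eggshell markers varied between the same arrays. Their summed intensity over 13 measured genes of 15 listed was 20463, 13168 and 32482 in wild type on sucrose and 5594, 4734 and 14180 on phenobarbital, again lowest in replicate 2 and highest in replicate 3. In the mutant the sums were 54120, 49215 and 27254 on sucrose and 18993, 38644 and 31907 on phenobarbital. In the mutant on sucrose this order, lowest in replicate 3 and highest in replicate 1, was that of ftz-f1 set A but not of usp or Hr39 set A. In the mutant on phenobarbital it differed from that of all of them. The part of ovary tissue in the receptor values was not tested.

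**Figure D4:**
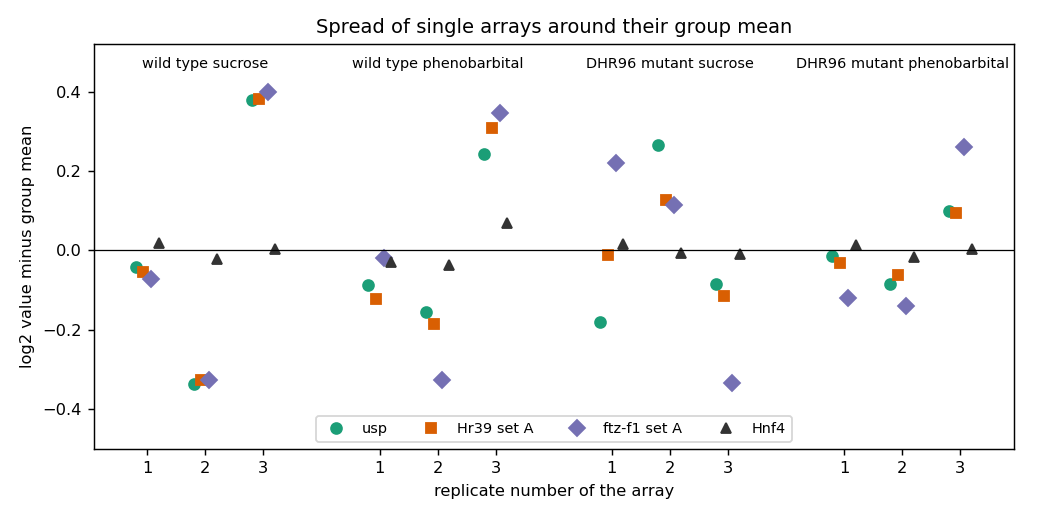
Distance of each array from the mean of its group (log2 units) for usp, Hr39 set A, ftz-f1 set A and Hnf4, by group and replicate number, which gives no order. Usp, Hr39 set A and ftz-f1 set A lie together on the wild-type arrays, from -0.34 to 0.40 on sucrose, while Hnf4 stays close to 0. Other sets of Hr39 and ftz-f1 are not drawn and kept this order only in part.

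Counted over the 9 probe sets that are not dim, groups without overlap were found in every comparison of 2 groups. For phenobarbital in wild type 2 of 9 sets had groups apart, against 20.7% of the 10341 probe sets that are not dim, and for phenobarbital in the mutant 5 of 9 did, namely usp, Hr39 sets A and B, ERR and Hnf4, all higher on phenobarbital, against 44%. For genotype on sucrose 4 of 9 were apart, all lower in the mutant, against 16.4%. They were EcR, Hr39 set C, ftz-f1 set B and Hnf4. For genotype on phenobarbital 4 of 9 were apart, 2 higher and 2 lower, against 25.7%.

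The probe sets of the remaining measured receptors of the ecdysone cascade read near the lower end of the scale. Eip78C, a receptor of early and late puffs, Hr3, which activates ftz-f1, and Hr4, a repressor that acts downstream of ecdysone, had only dim probe sets, 5 in all. With the dim set of Hr39, the 6 dim sets read between 2.02 and 3.32 on every array. At this level a probe set gave no usable measure of its transcript, and no change can be read. Other sets of Hr39 were not dim, so a dim set does not show that a transcript was absent. Hr3 read 3.01, 3.13 and 3.21 in wild type on sucrose and 3.29, 3.13 and 3.32 on phenobarbital, and in the mutant 3.10, 3.14 and 3.05, then 3.16, 3.05 and 3.10. Eip78C read between 2.03 and 2.60, and the sets of Hr4 stayed between 2.02 and 2.52. Hr4 and usp lie close together on the X chromosome, with 4 annotated genes between them in the order of Release 6 plus ISO1 MT. Of the others, Hr39 and Hnf4 lie on arm 2L, EcR and Hr3 on 2R, and Eip78C, ftz-f1 and ERR on 3L.

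Most genes that make and handle ecdysone were dim as well. Of 11 measured genes of ecdysone synthesis, uptake and turnover, 8 were dim, among them spo, dib and sad of the steroid synthesis chain, and 0 were called in either genotype. Oatp74D, the ecdysone importer of the fly, was 1.49-fold higher on phenobarbital in the mutant without reaching the fold minimum (log2 difference 0.57 ± 0.10, SE; limma adjusted p = 0.011). Its difference in wild type was 0.13 ± 0.10 (adjusted p = 0.53). On sucrose it read 1.44-fold lower in the mutant than in wild type (-0.53 ± 0.10, adjusted p = 0.093). On phenobarbital the genotype difference was -0.09 ± 0.10 (adjusted p = 0.54), so the mutant did not read above wild type there. The other 2 that are not dim, Cyp18a1, which inactivates ecdysone, and the transporter gene E23, did not pass in either genotype (adjusted p from 0.49 to 0.87). With 8 of 11 genes dim, no list median is given.

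Of 9 measured ecdysone-responsive genes 5 were dim and 0 were called on phenobarbital in either genotype. Eip63E, a cyclin-dependent kinase gene, fell by 0.43 ± 0.09 in wild type (limma adjusted p = 0.018), which is under 1.5-fold. In the mutant it gave -0.20 ± 0.09 (adjusted p = 0.27), and a difference between the responses was not established (adjusted p = 0.84). Averaged over the genotypes it gave -0.32 ± 0.06 (adjusted p = 0.0098). ImpL2, a secreted binding protein of insulin-like peptides, gave -0.26 ± 0.23 in wild type and -0.59 ± 0.23 in the mutant (adjusted p = 0.55 and 0.23). Over the 4 genes that are not dim the medians were -0.22 and -0.17.

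Among 11 other nuclear receptors 6 were dim, and the only call in any comparison of 2 groups was Hr96 between the genotypes. Among 6 measured cofactors of nuclear receptors mbf1, a bridging coactivator first described for the silkworm counterpart of ftz-f1, was 1.30-fold higher on phenobarbital in wild type and 1.27-fold higher in the mutant (limma adjusted p = 0.015 and 0.022). The other 5 did not pass for phenobarbital in wild type or in the mutant. For the mean phenobarbital effect bon passed in the other direction, 1.21-fold lower (limma adjusted p = 0.034), beside mbf1 at 1.29-fold higher (adjusted p = 0.0016). The cofactor medians for phenobarbital were -0.05 in wild type and 0.30 in the mutant.

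Metabolic genes tied to ERR and Hnf4 were measured in part, 8 of 13 and 9 of 12 listed, and Lip3, a lipase gene of the Hnf4-linked list, was the only dim one. Of 8 genes of glycolysis measured from the ERR-linked list of 13, 0 were called in any comparison. On phenobarbital their median was -0.15 for wild type and 0.14 for mutants, beside 0.02 and 0.003 for all probe sets. Between the genotypes their median was -0.36 on sucrose and -0.09 on phenobarbital. On sucrose all 8 read lower in the mutant, 7 of them at an unadjusted p under 0.05 and 0 past the adjusted p in limma (0.16 to 0.52). Between the diets Pgi, phosphoglucose isomerase, had the largest difference in the mutant, 0.44 ± 0.11 (log2, SE; limma adjusted p = 0.055). Pfk, phosphofructokinase, had the lowest in wild type, -0.29 ± 0.09 (adjusted p = 0.15). Averaged over the genotypes Pgi gave 0.31 ± 0.08 (adjusted p = 0.038). It was the only 1 of the 8 past the adjusted p for the mean phenobarbital effect, where 9.78% of all probe sets passed.

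Of 9 measured genes of the Hnf4-linked list, 4 were called higher on phenobarbital in each genotype and 0 lower, against 4.27% and 4.62% of all probe sets called. They were Pepck1, of gluconeogenesis, Acox57D-p and yip2, which encode an acyl-CoA oxidase and a thiolase of fatty acid oxidation, and the hexokinase gene Hex-C. The list was chosen with earlier results of these data known, so this count is a description. The percentages of all probe sets also include dim ones, while 8 of the 9 genes were not dim, so the shares are not like for like. The list medians were 0.52 for wild type and 0.60 for mutants, and 0.84 and 0.88 over the 8 genes without the dim Lip3. The mean log2 intensity of Pepck1 went from 11.22 ± 0.18 to 14.57 ± 0.09 in wild type and from 10.88 ± 0.23 to 14.52 ± 0.03 in the mutant (SD, n = 3). Acox57D-p went from 8.52 ± 0.28 to 10.70 ± 0.19 and from 8.52 ± 0.17 to 10.88 ± 0.01 in the same order. The diets did not overlap for either gene. Hex-C went from 10.17 ± 0.31 to 11.32 ± 0.25 in wild type and from 10.46 ± 0.18 to 11.68 ± 0.16 in mutants, and yip2 from 11.26 ± 0.14 to 12.46 ± 0.13 and from 11.36 ± 0.07 to 12.57 ± 0.04.

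Other genes of the Hnf4-linked list moved less. The carnitine palmitoyltransferase gene whd was 1.43-fold and 1.47-fold higher (limma adjusted p = 0.0072 and 0.0045). In the mutant Mtpbeta and scu, of mitochondrial fatty acid oxidation, passed the adjusted p at 1.33-fold and 1.41-fold (0.044 and 0.042), and in wild type they missed it (0.057 and 0.10). Acox57D-d, the neighbouring oxidase gene, gave -0.22 ± 0.19 and -0.25 ± 0.19. In these groups the linked genes that were called differed by 2.23-fold to 12.5-fold, beside 1.23-fold and 1.34-fold for Hnf4 itself. None of the 9 was called between the genotypes.

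**Figure D5:**
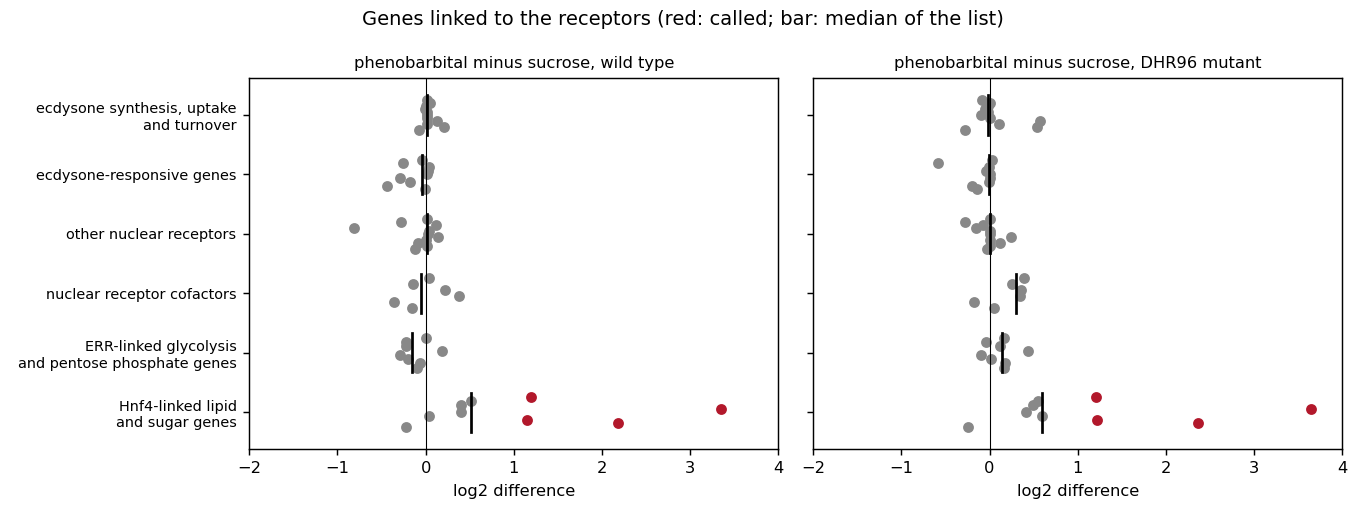
Log2 difference between phenobarbital and sucrose (horizontal axes) in wild type and DHR96 mutant for genes linked to the receptors, 1 dot a gene, with the list median, dim genes included, as a black bar. Red dots, the called genes, occur in the Hnf4-linked list alone among these 6 lists, 4 in each genotype. The lists were chosen with earlier results of these data known, so this is a description. Dim genes were 8 of 11 for ecdysone synthesis, 5 of 9 for ecdysone-responsive genes and 6 of 11 for other receptors. They were 1 of 9 in the Hnf4-linked list and 0 in the cofactor and ERR-linked lists.

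The genes whose values followed the 2 changed receptors most closely over the 12 arrays were sought among 8748 genes that are not dim, by Pearson's r as a measure of likeness. For Hnf4 they were CG10621 and CG11842 (r = 0.98 each). CG10621 differed by 2.18 and 2.37 on the log2 scale between the diets in wild type and mutant, and CG11842 by 1.45 and 1.70. For ERR they were Ugt37A3 (r = 0.94), a UDP-glycosyltransferase gene, and CG14990 (r = 0.91). CG14990 differed by 0.51 in wild type and 1.52 in mutants, but its sucrose means, 4.25 and 4.09, lay little above the dim limit. The mean of Ugt37A3 was under 4 in both sucrose groups, 3.63 in wild type and 3.595 in mutants, so no difference between the diets is given for it. It passed the dim limit only through its phenobarbital groups (4.26 and 5.84). Its r thus rests in part on values near the lower end of the scale, and its rank is not read. As the highest of many values over arrays that share their groups, these r are a description.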

How the data were processed

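The deposited values are normalized intensities per probe set, made by the authors with GCRMA, a background correction, normalization and probe summary in 1 procedure, per the submitters' processing notes, which name no version. The values span a linear scale and were log2-transformed here. Dim probe sets lie near the lower end of this scale, and their changes were not read.

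Linear models with 1 mean per group were fitted to all probe sets and 12 arrays with limma 3.58.1 in R 4.3.3 (8 residual degrees of freedom, 8.8 with the prior), and p-values were adjusted by Benjamini and Hochberg over all probe sets. The fit was tested on simulated data. The number of arrays limits the precision. Probe sets were named through the platform table, with 13647 naming 1 gene, 402 several and 4720 none, and Entrez identifiers changed 0 symbols. The probe set with the highest mean stands for a gene in counts, with the others named beside it. All probe sets of the members are reported, and from each linked list up to 3 called genes a direction. List genes past the adjusted p alone, others given as examples of a list, and the genes like Hnf4 and ERR were picked after their values were seen. The members, lists and tests were chosen with earlier results of these data known. Same-numbered arrays were not treated as pairs in the main fit of any comparison. In 3 of 4 comparisons of 2 groups the correlations of their deviations included values under 0.1 (lowest -0.71). For genotype on phenobarbital all 3 were above 0.1 (0.31, 0.34 and 0.70), so the numbers may pair those arrays. The values given for that comparison leave such pairs out. A limma fit with the replicate number as a block shared by all groups left 0 receptor genes called there (ERR adjusted p = 0.15). That block does not model pairs of the phenobarbital arrays alone. Figures were drawn with matplotlib 3.10.9 in Python 3.11.15.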

Additional observations from a re-analysis of the deposited data

How the results depend on the processing

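The count of called receptor genes was 0 in all 7 contrasts and stayed 0 under quantile normalization, an intensity trend with a robust prior, a 2-fold minimum, no dim probe sets, and the probe set with the largest SD. It also stayed 0 in fits on the groups compared alone, run for the 4 comparisons of 2 groups. Without a fold minimum it became 1 for phenobarbital in wild type, 2 in the mutant, 2 for the mean phenobarbital effect and 1 for the mean genotype effect. With 1 array left out it was 0 to 1 for phenobarbital in the mutant, where ERR passed 1.5-fold without mutant sucrose replicate 1 (log2 difference 0.59), and 0 otherwise. By adjusted p alone, leaving out 1 array gave 0 to 1 genes for genotype on sucrose, where Hnf4 passed without wild-type phenobarbital replicate 3 (adjusted p = 0.012), and 0 to 2 for the mean genotype effect. The mean genotype effect counted 0 genes without dim probe sets, with the trend and with the replicate block. The trend left 1 gene for the mean phenobarbital effect, where ERR had a log2 difference of 0.29 (adjusted p = 0.089). The replicate block changed no other receptor call, 0 receptor genes being called with it in any contrast. Hnf4 passed in each genotype, and ERR in the mutant, in every fit run. The cause of these shifts was not tested.

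Of 1698 alternative values of single receptor probe sets, 1678 kept their side of the adjusted p, 13 fell below it, 7 rose past it and 0 reversed; 59 that never passed changed sign, and no direction was read from them. The Hr39 ratio of set A over set C for genotype kept its direction under quantile normalization and without each array, alternatives added after seeing the data. Its phenobarbital difference, which had not passed the adjusted p, also lost its unadjusted p under 0.05 with quantile normalization (0.33) and in 8 of 12 fits without an array. Without 1 array such a p was gained by set A over set B of Hr39 for phenobarbital and by ftz-f1 set A over set B for both effects. Over all probe sets, calls fell from 801 to 391 in wild type when only the 6 arrays compared were fitted, and from 40 to 4 for genotype on sucrose, which rose to 185 without wild-type sucrose replicate 3 and fell to 19 without mutant sucrose replicate 1, and to 25 and 26 without mutant phenobarbital replicates 1 and 2. Calls for the mean genotype effect ranged from 45 to 230 with 1 array left out, the highest without wild-type sucrose replicate 3, and those for the interaction from 0 to 15, the highest without the same array. A 2-fold minimum gave 506, 550, 608 and 41 calls for phenobarbital in wild type, in the mutant, in the mean, and for the mean genotype effect, beside 801, 867, 1070 and 86, and no minimum gave 1835 and 158 for the last 2. The trend gave 34 calls for genotype on phenobarbital and 7 for the interaction, beside 22 and 0, and the 6 arrays alone gave 11 for the former. Without dim probe sets the mean genotype effect gave 131. Dim intensities limit what can be said of Eip78C, Hr3 and Hr4.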
